A study of Rattus norvegicus with 25 samples.

Results

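The genes of the oligodendrocyte lineage, from the progenitor to the myelinating cell, were examined in bulk RNA sequencing of the basolateral amygdala (BLA) and the hippocampal dentate gyrus (DG) of rats. Their members were a list of 31 genes in 3 sets, namely 7 progenitor genes, 6 lineage transcription factors and 18 genes of mature myelin. Of these, 30 were found by name among the 26312 gene identifiers of the files, each with 1 identifier. Trf was not found under that name and has no value here, which left 17 myelin genes. All 30 passed the filter on low counts in each region.

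The animals were adult male Sprague-Dawley rats of WT genotype. Stressed rats had been immobilized for 3 h together with the scent of fox urine, with blood drawn meanwhile and a short period of separate housing afterwards, and control rats had stayed in the home cage. All rats then went through the same behavioral tests. Tissue came from the left hemisphere on day 9, as several pooled punches (0.75 mm wide, from 200 µm sections), so each library mixes all the cells of that tissue. Stressed rats were picked for sequencing from the ends of a composite anxiety-like behavior score, as stress-low (0 to 2) or stress-high (13 to 15), with controls at 0 to 6, and the groups are therefore extremes of a distribution rather than random samples of it. Of 25 libraries from 14 animals, 12 from BLA were used (6 control, 3 stress-low and 3 stress-high) and 11 from DG (5 control, 3 stress-low and 3 stress-high). One control library per region was left out, the one farthest along the leading principal component, because the study also removed an outlying control per region, and 9 animals gave a used library from each region. The treatment field of the BLA control library from animal 35 says stress while its library name says control. It was used as a control, and values without it are given where they matter.

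Oligodendrocyte progenitors are dividing glia found throughout the adult brain. They carry the PDGF receptor alpha and the NG2 proteoglycan, and some of them stop dividing, pass through a committed stage and wrap axons with myelin. The transcription factors Olig1, Olig2 and Sox10 are present along the whole lineage, whereas Myrf is switched on at the step to myelin and is needed for it. Myelin itself is a stack of membrane rich in cholesterol and galactolipid, held together by proteins such as myelin basic protein.

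Promoters of 5 myelin genes are shown, those that hold the letters of the motif bound by Myrf. All 5 genes were higher in BLA in the region comparison, as were 16 of the 17 myelin genes and 40.3% of all genes. They were taken from RefSeq (build GRCr8, which is not the build of the count files) and run from 250 bases before the annotated start to 50 bases after it, 5′ to 3′. Opalin lies at chr1:249858141-249858440 on the minus strand, Mag at chr1:95290995-95291294 on the minus strand, Cnp at chr10:86011254-86011553 on the plus strand, Cldn11 at chr2:114149490-114149789 on the minus strand and Mal at chr3:135341374-135341673 on the minus strand. Capitals mark CTGGCAC or CTGGTAC, written for Myrf, and ACAAAG, written for SOX proteins or the reverse complement of either, so both strands were read. In these 5 windows no marked stretch overlapped another.
Opalin: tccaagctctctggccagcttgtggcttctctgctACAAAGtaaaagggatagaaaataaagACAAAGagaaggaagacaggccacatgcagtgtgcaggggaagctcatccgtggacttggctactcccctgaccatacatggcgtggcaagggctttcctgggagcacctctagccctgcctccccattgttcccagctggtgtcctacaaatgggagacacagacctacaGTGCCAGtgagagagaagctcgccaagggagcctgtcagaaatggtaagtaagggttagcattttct
Mag: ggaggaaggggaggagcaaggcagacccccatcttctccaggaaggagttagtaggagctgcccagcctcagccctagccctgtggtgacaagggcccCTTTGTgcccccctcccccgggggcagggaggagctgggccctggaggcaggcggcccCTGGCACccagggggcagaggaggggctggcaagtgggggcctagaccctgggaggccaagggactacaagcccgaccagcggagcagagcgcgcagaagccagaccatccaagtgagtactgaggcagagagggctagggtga
Cnp: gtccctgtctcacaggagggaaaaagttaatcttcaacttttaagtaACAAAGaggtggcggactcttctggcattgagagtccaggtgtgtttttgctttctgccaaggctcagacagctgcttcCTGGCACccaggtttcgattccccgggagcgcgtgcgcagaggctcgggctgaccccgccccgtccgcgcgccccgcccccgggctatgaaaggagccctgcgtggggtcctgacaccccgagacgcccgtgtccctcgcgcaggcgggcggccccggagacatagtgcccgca
Cldn11: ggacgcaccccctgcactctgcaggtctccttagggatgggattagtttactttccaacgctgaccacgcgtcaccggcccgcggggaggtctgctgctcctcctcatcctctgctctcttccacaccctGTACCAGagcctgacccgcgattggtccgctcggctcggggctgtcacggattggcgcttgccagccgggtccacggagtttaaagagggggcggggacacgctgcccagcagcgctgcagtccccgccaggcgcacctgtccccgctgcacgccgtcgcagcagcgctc
Mal: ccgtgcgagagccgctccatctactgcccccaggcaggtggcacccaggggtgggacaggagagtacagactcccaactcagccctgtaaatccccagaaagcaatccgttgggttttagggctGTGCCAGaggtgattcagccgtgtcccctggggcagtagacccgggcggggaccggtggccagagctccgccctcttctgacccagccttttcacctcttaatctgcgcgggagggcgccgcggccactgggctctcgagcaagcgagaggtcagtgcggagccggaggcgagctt

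A promoter was matched for 23 of the 30 members, with 24 windows because Mbp had a pair of starts. The Myrf letters were in 6 of the 24 windows (25.0%), those of Cldn11, Cnp, Mag, Mal, Olig2 and Opalin, and in 6.78% of all 33469 promoters. The SOX letters were also in 6 (25.0%), those of Cnp, Mag, Mbp, Mobp, Opalin and Sox6, and in 18.8% of all promoters. Cnp, Mag and Opalin held both kinds, as did 1.31% of all promoters. In Opalin the Myrf letters began 17 bases before the start, against 94 in Mag, 120 in Cldn11, 124 in Cnp and 126 in Mal. Mobp held 8 copies of the SOX letters. Such matches describe the letters in a window and are not binding sites.

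The members ranged widely in level. Levels are given in TPM, transcripts scaled to a fixed sum per library, which are scaled by gene length. In BLA, Mbp (myelin basic protein) was the highest with a median of 1429 TPM over 12 libraries, followed by Mobp at 318 TPM and Cnp, a myelin enzyme, at 219 TPM. The lowest was Nkx2-2, a transcription factor of the committed progenitor, with a median of 2.98 TPM and 20 to 52 reads per library. In DG the same gene had a median of 2.13 TPM and only 10 to 40 reads, so its differences were the least precisely measured. Among progenitor genes, Ptprz1, a receptor tyrosine phosphatase that astrocytes also express, was the most abundant (64.8 TPM in BLA and 51.4 TPM in DG), while Sox6, a transcription factor that neurons also use, was at 7.18 TPM in BLA and 2.40 TPM in DG. Together the 30 members made up 0.243% to 0.417% of TPM in BLA libraries and 0.165% to 0.219% in DG libraries, 2 ranges that did not overlap.

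Total reads per library ran from 12709493 to 22801247 in BLA and from 11656439 to 19477932 in DG. Region markers separated the libraries for most of the genes listed. Prox1, a transcription factor of dentate granule cells, lay between 63.0 and 95.5 TPM in DG and between 2.03 and 2.93 TPM in BLA, whereas Nr2f2 lay between 88.0 and 163 TPM in BLA and between 6.02 and 8.44 TPM in DG. Rspo2, also listed for the amygdala, went against its label and was lower in BLA (median 12.0 TPM) than in DG (median 20.1 TPM). The 5 choroid plexus markers summed to at most 0.75 TPM in any library used.

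The comparison of the regions asked how much lineage transcript each region held in the same animals. Most of the lineage was higher in BLA than in DG. Of the 30 members, 26 were higher in BLA at an adjusted p below 0.05 (edgeR with the animal as a block and an offset for gene length), 1 was higher in DG and 3 did not pass. Across all 14361 genes tested, 40.3% were higher in BLA and 38.3% were higher in DG by the same rule, so a call alone was common. A fold of at least 2 in favour of BLA was reached by 10 members, 8 of them myelin genes and 2 of them progenitor genes, and by 12.1% of all genes. The median log2 fold change was 0.82 for myelin genes, 0.64 for transcription factors and 0.45 for progenitor genes, against 0.02 for all genes. The libraries of the regions were not quantified alike. The effective length of a gene was its length less 50 bases in BLA and less 261 to 274 bases in DG, so the region and the way its libraries were made cannot be told apart. In bulk tissue, fewer cells of a type and less RNA per cell cannot be told apart either.

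**Figure D1:**
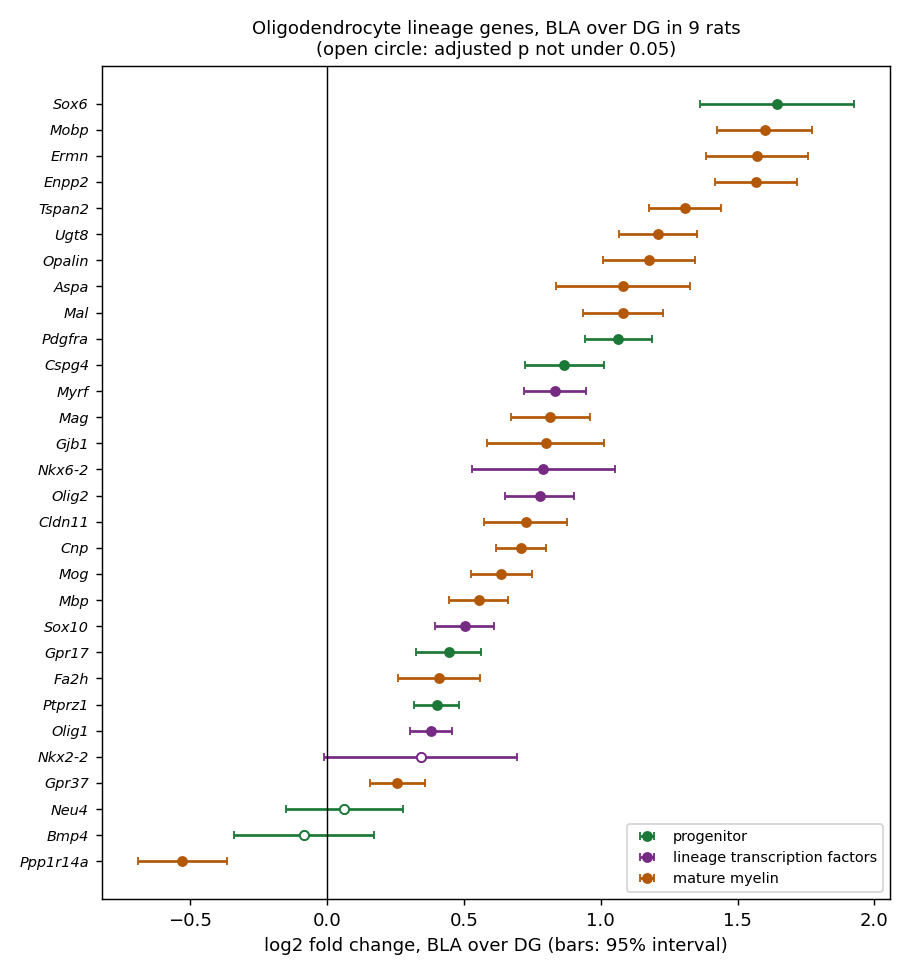
Log2 fold change of BLA over DG (horizontal axis, with the 95% interval as a bar) for each of the 30 genes, fitted over 9 rats and coloured by set. Open circles mark the 3 genes that did not pass, Nkx2-2, Neu4 and Bmp4, and Ppp1r14a is the 1 gene clearly to the left of 0.

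Among the progenitor genes, Pdgfra, the PDGF receptor that defines the progenitor, was between 12.7 and 18.7 TPM in DG and between 23.2 and 34.3 TPM in BLA. The ranges did not overlap, and the log2 fold change was 1.07 (SE 0.06, adjusted p = 9.03e-11, edgeR). Cspg4, the NG2 proteoglycan, showed a log2 fold change of 0.87 (SE 0.07). The largest difference of any member was that of Sox6, with a log2 fold change of 1.64 (SE 0.13, adjusted p = 1.20e-08, edgeR). Its ratio of BLA to DG in single animals ran from 1.5 to 5.09 and was above 1 in all 9.

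Other progenitor genes differed less or did not pass. Gpr17, a receptor of the committed progenitor, was at 20.8 to 31.7 TPM in BLA and 15.6 to 25.7 TPM in DG, ranges that overlapped. It was higher in BLA in all 9 animals, with ratios from 1.0 to 1.33 and a log2 fold change of 0.45 (SE 0.06, adjusted p = 2.12e-06, edgeR). Bmp4, a signal that committed progenitors make, had a log2 fold change of -0.08 (95% interval -0.34 to 0.17) and was higher in BLA in 3 of 9 animals. Neu4, a sialidase of the same stage, had a log2 fold change of 0.06 (95% interval -0.15 to 0.28) and was higher in BLA in 4 of 9. Neither interval reached the size of the difference seen for Pdgfra.

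Of the transcription factors, Myrf was at 20.5 to 32.6 TPM in BLA and 14.5 to 18.1 TPM in DG, with no overlap and a log2 fold change of 0.83 (SE 0.05, adjusted p = 6.95e-10, edgeR). Olig2 had 10.4 to 17.3 TPM in BLA and 7.22 to 10.4 TPM in DG. Its log2 fold change was 0.78 (SE 0.06). Olig1, a close relative of Olig2, differed less, by 0.38 on the log2 scale (SE 0.04), and Sox10 by 0.50 (SE 0.05). Nkx2-2 did not pass, with a log2 fold change of 0.34 and a 95% interval from -0.01 to 0.69.

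Myelin genes showed the widest spread of folds. Mobp, a protein of compact myelin, was at 96.7 to 149 TPM in DG and 254 to 376 TPM in BLA in the 9 animals, a log2 fold change of 1.60 (SE 0.08, adjusted p = 4.31e-11, edgeR). Ermn, a cytoskeletal protein of the mature cell, followed at 1.57 (SE 0.09, adjusted p = 1.26e-10, edgeR), and Enpp2, the enzyme autotaxin, at 1.57 (SE 0.07). Opalin, a sialylated membrane protein of the oligodendrocyte, was at 35.4 to 77.1 TPM in BLA and 19.6 to 32.8 TPM in DG, with a log2 fold change of 1.18 (SE 0.08). Mbp and Mog differed less than these. Mbp had a log2 fold change of 0.55 (SE 0.05, adjusted p = 6.38e-08, edgeR), and its ranges overlapped slightly, from 1185 to 2101 TPM in BLA and from 881 to 1191 TPM in DG. Mog, a glycoprotein on the outer face of myelin, had 45.4 to 75.7 TPM in BLA and 30.0 to 43.8 TPM in DG, with a log2 fold change of 0.64 (SE 0.05).

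Ppp1r14a, an inhibitor of myosin phosphatase, was the 1 member higher in DG. It was at 22.8 to 43.7 TPM in BLA and 39.9 to 71.0 TPM in DG, with a log2 fold change of -0.53 (SE 0.08, adjusted p = 1.20e-05, edgeR). At 538 bases it is a short gene, and its direction depended on the length correction. Without it the log2 fold change was 0.12 (adjusted p = 0.298, edgeR).

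**Figure D2:**
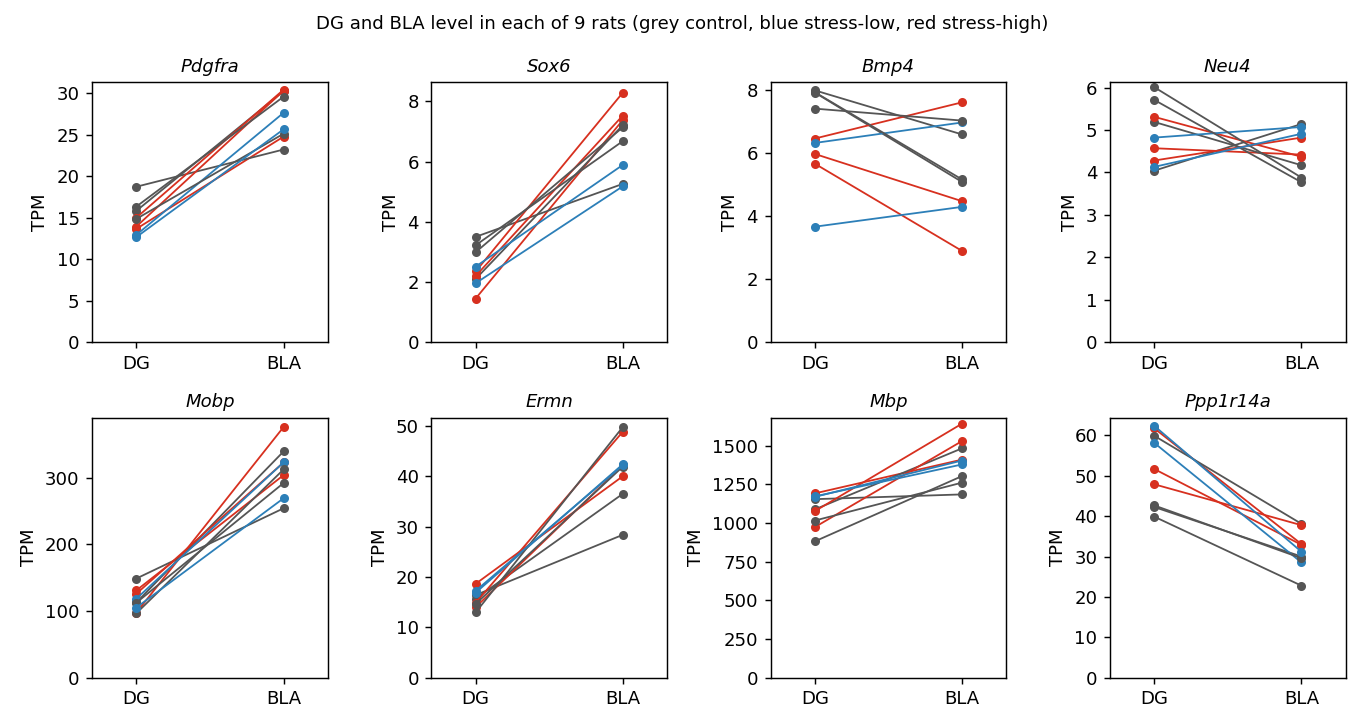
TPM of 8 members in DG and BLA (vertical axes from 0), with a line for each of 9 rats coloured by group. All 9 lines rise from DG to BLA for Pdgfra, Sox6, Mobp, Ermn and Mbp, cross one another for Bmp4 and Neu4, and fall for Ppp1r14a.

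The size of the difference varied between animals. The mean log2(TPM + 1) of the 17 myelin genes was higher in BLA in each of the 9 animals, by 0.275 in animal 17 and by 0.947 in animal 28, both of them controls. For the 7 progenitor genes the difference ran from -0.0008, again in animal 17, to 0.601. Animal 17 had the lowest myelin level of the 12 BLA libraries and the third highest of the 11 DG libraries. With the 4 control animals alone, 26 members were again higher in BLA and 1 in DG, beside 4738 and 4604 of 14489 genes.

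Other genes of the lineage, listed apart from the members, went mostly the same way. Of 15 further genes of mature oligodendrocytes, 13 were higher in BLA and 1 in DG (median log2 fold change 0.66). Of 5 genes of newly formed oligodendrocytes, 4 were higher in BLA and 1 in DG, and of 5 further progenitor genes 3 and 1. Among 15 signals and receptors that act on the lineage, 12 were higher in BLA, led by the growth factor Nrg1 at 2.09 (SE 0.10) and its receptor Erbb4 at 1.89 (SE 0.09), which neurons also express. Of 9 genes of cholesterol and galactolipid synthesis, 5 were higher in BLA and 1 in DG, with a median of 0.23.

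Markers of other glia and of vessels also differed between the regions. All 6 microglia markers were higher in BLA (median log2 fold change 0.72), as were all 4 endothelial markers (0.46) and all 5 leptomeningeal fibroblast markers (1.0), and 3 of 4 pericyte markers passed in the same direction (0.74). Pdgfra is also expressed by fibroblasts and Cspg4 by pericytes, and their part in the values of these genes was not tested. Of the astrocyte markers, 5 of 6 astrocyte markers were higher in BLA and Gfap was higher in DG at -1.70 (SE 0.07). The 6 neuron markers summed to 3474 to 4140 TPM in BLA and 4247 to 5115 TPM in DG. The part of these differences in the lineage result was not tested.

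The 3 stress comparisons within each region asked whether lineage genes differed with stress and with the behavioral outcome. No member, and no other gene tested, reached an adjusted p below 0.05 in any of the 6 comparisons with edgeR. The study used a different method, EBSeq, and reported small sets of differentially expressed genes in these comparisons at a false discovery rate below 0.05. At an unadjusted p below 0.05 in BLA there were 302 of 15230 genes (1.98%) for stress-high over stress-low, 419 (2.75%) for stress-low over control and 392 (2.57%) for stress-high over control. In DG there were 440 of 14080 genes (3.12%), 972 (6.9%) and 309 (2.19%) in the same order. DESeq2 called 0, 1 and 1 genes in BLA and 3, 4 and 1 in DG at an adjusted p below 0.05, and limma on log2(TPM + 1) called 0, 1 and 0 and then 0 in each of the DG comparisons. None of the genes called by either was a member.

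In BLA the myelin genes lay slightly above control in each stressed group. All 17 had a log2 fold change above 0 in stress-low over control, with a median of 0.18 against -0.0020 for all genes, 49.1% of which were above 0. All 17 were also above 0 in stress-high over control, with a median of 0.11, where 48.5% of all genes were. These comparisons share the same 6 controls, and myelin genes of a library move as a block, so the 17 are far from 17 separate observations. The stress-low value rested on 1 library. The library of animal 30 had the highest level of all 17 myelin genes among the 12 BLA libraries, and without it the stress-low median was 0.02, with 11 of 17 above 0. Without the stress-high library of animal 19 the stress-high median was 0.05, with 15 of 17 above 0.

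**Figure D3:**
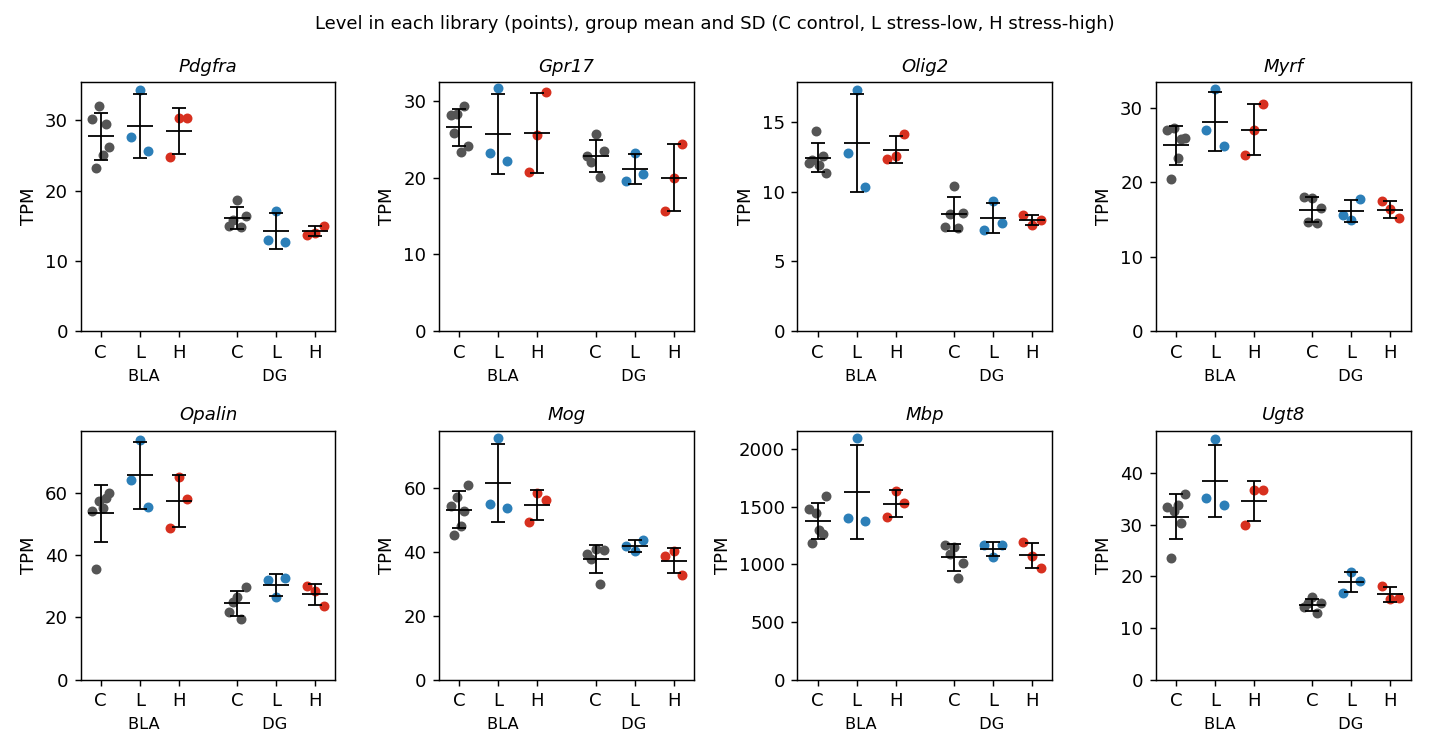
TPM of 8 members in each library (points), with the group mean and SD, for control (C), stress-low (L) and stress-high (H) rats in BLA and DG. The highest stress-low library in BLA in the panels of Mbp, Mog and Opalin is that of animal 30, far above its group for Mbp and Mog.

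Mbp shows how these medians arise. Its BLA controls ran from 1185 to 1598 TPM with a median of 1376 TPM. The stress-low libraries had 1404, 2101 and 1378 TPM and the stress-high libraries 1410, 1642 and 1530 TPM. All stress-low libraries but the one of animal 30 lay within the range of the controls. Opalin in BLA controls ran from 35.4 to 59.9 TPM with a median of 56.3 TPM, against 64.2, 77.1 and 55.5 TPM in stress-low and 48.6, 65.2 and 57.9 TPM in stress-high rats. Mog ran from 45.4 to 61.0 TPM with a median of 53.7 TPM in controls and had 55.0, 75.7 and 53.8 TPM in stress-low and 49.4, 58.5 and 56.2 TPM in stress-high rats. The groups overlapped for all 3 genes.

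The myelin genes nearest to the threshold in BLA were Enpp2 and Cldn11, a tight junction protein of myelin, in stress-low over control. Enpp2 ran from 29.7 to 44.1 TPM in controls with a median of 39.4 TPM and had 41.1, 63.5 and 41.7 TPM in stress-low rats, a log2 fold change of 0.29 (SE 0.12, unadjusted p = 0.0273). Cldn11 ran from 86.9 to 107 TPM with a median of 101 TPM and had 106, 148 and 105 TPM, a log2 fold change of 0.21 (SE 0.09, unadjusted p = 0.0298). The adjusted p was 1.0 for each with edgeR, and without animal 30 the log2 fold changes were 0.10 and 0.08. In stress-high over control the smallest p was that of Mag, an adhesion protein of the inner myelin membrane. It ran from 64.7 to 90.9 TPM in controls with a median of 78.5 TPM and had 73.4, 96.6 and 98.1 TPM in stress-high rats, a log2 fold change of 0.18 (SE 0.11, unadjusted p = 0.116), with 1 stress-high library within the controls.

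Progenitor genes in BLA did not move together. Of the 7, 4 were above 0 in stress-low over control (median 0.03) and 4 in stress-high over control (median 0.03). Ptprz1 was the member with the smallest p in BLA. Controls ran from 60.4 to 69.5 TPM with a median of 67.8 TPM, and stress-low rats had 58.1, 65.4 and 55.2 TPM, lower in 2 of 3 libraries than any control. The log2 fold change was -0.20 (SE 0.05, unadjusted p = 0.00207, adjusted p = 1.0, edgeR). In stress-high rats Ptprz1 had 57.9, 64.3 and 65.8 TPM, a log2 fold change of -0.08 (SE 0.05). The study had picked Ptprz1 out in BLA from these same libraries, so its values here are not independent evidence. Nkx2-2 was the other member with an unadjusted p below 0.05 in this comparison, at -0.45 (SE 0.19), and it rests on 20 to 52 reads per library. In all, 4 of 30 members had an unadjusted p below 0.05 in stress-low over control and none in stress-high over control, beside 2.75% and 2.57% of all genes. Without the control library of animal 35, whose labels disagree, these counts were 9 and 1, with none called at an adjusted p below 0.05.

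Pdgfra did not separate the BLA groups. It ran from 23.2 to 32.0 TPM with a median of 27.9 TPM in controls and had 27.6, 34.3 and 25.6 TPM in stress-low and 24.8, 30.3 and 30.4 TPM in stress-high rats. Gpr17 ran from 23.4 to 29.4 TPM with a median of 27.0 TPM in controls, with 23.2, 31.7 and 22.2 TPM in stress-low and 20.8, 25.6 and 31.2 TPM in stress-high rats. Olig2 in BLA ran from 11.4 to 14.4 TPM with a median of 12.1 TPM in controls, with 12.7, 17.3 and 10.4 TPM in stress-low and 12.3, 12.5 and 14.1 TPM in stress-high rats. The groups overlapped for each of these genes. Myrf ran from 20.5 to 27.4 TPM with a median of 25.9 TPM. Myrf had 27.1, 32.6 and 24.9 TPM in stress-low and 23.7, 27.1 and 30.5 TPM in stress-high rats, all groups overlapping. No member had groups that did not overlap in stress-low over control (1.39% of all genes) or in stress-high over control (0.978%).

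Between the behavioral outcomes in BLA, the myelin genes had a median log2 fold change of -0.08 for stress-high over stress-low, with 12 of 17 below 0. Without the library of animal 30 it was 0.06, with 14 of 17 above 0, so the direction rested on that library. With animal numbers above 20 as a covariate it was 0.04, with 12 of 17 above 0. Sox6 had the smallest p of the members here. Stress-high rats had 7.38, 7.53 and 8.29 TPM and stress-low rats 5.18, 7.41 and 5.89 TPM, a log2 fold change of 0.37 (SE 0.14, unadjusted p = 0.0176, adjusted p = 1.0, edgeR). Neu4 was the 1 member of 30 whose TPM did not overlap, at 4.42, 4.37 and 4.82 TPM in stress-high and 5.07, 5.88 and 4.91 TPM in stress-low rats, a pattern that 5.89% of all genes shared. Ptprz1 was next by p, at 0.12 (SE 0.06, unadjusted p = 0.0738), followed by Enpp2 at -0.19 (SE 0.14, unadjusted p = 0.176), whose stress-high libraries had 37.4, 41.0 and 45.6 TPM.

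In DG the sets lay on opposite sides of control. All 17 myelin genes were above 0 in stress-low over control, with a median of 0.13, where 49% of all genes were above 0. All 7 progenitor genes were below 0, with a median of -0.16. In stress-high over control 15 of 17 myelin genes were above 0 (median 0.09), where 50.5% of all genes were, and all 7 progenitor genes were below 0 (median -0.16). The DG comparisons share the same 5 controls. Without the stress-low library of animal 33 the stress-low progenitor median was -0.31, and without that of animal 34 it was -0.08. Without the stress-high library of animal 7 the stress-high myelin median was -0.02, with 7 of 17 above 0. All stress-high animals had numbers up to 20 and all stress-low animals numbers above 20, and with that split as a covariate the myelin medians were 0.33 for stress-low and -0.01 for stress-high over control. Depth moved with the groups in DG as well, since each stress-high library (16201792 to 19477932 reads) was deeper than each stress-low library (11656439 to 15547038 reads), and its part was not tested.

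**Figure D4:**
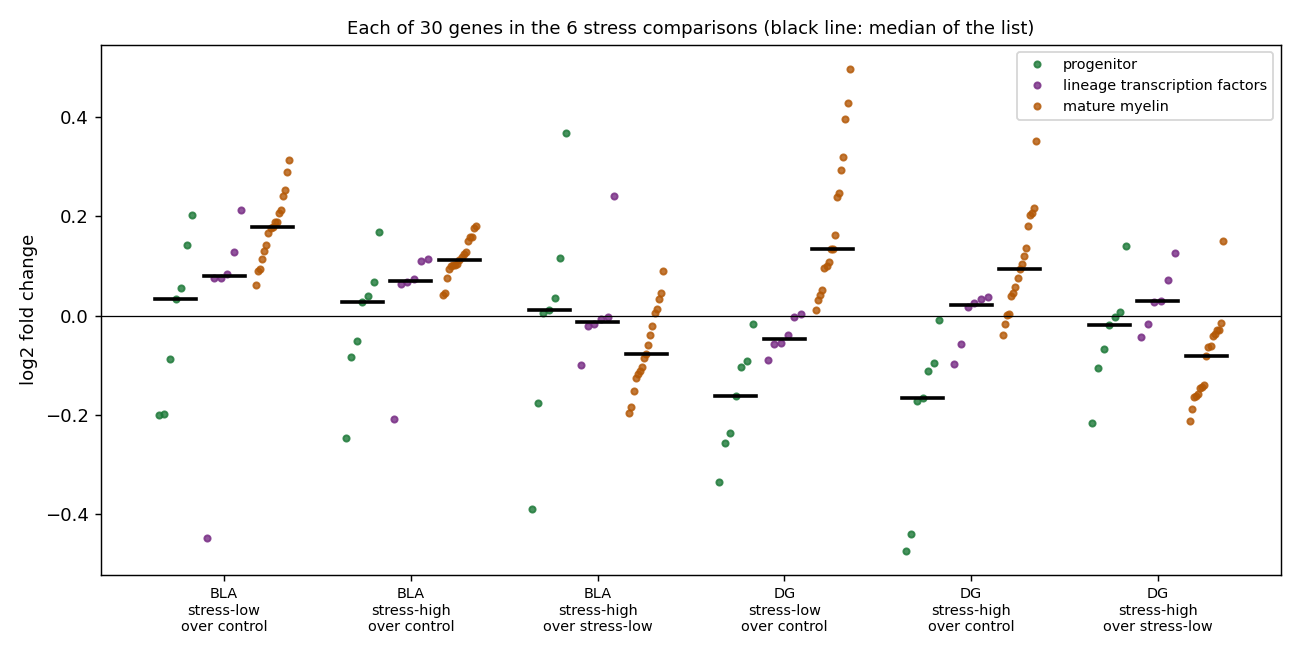
Log2 fold change (vertical axis) of each of the 30 genes in the 6 stress comparisons, by set, with the median of the set as a black line. All 17 myelin genes sit above 0 in the comparisons with control except for 2 in DG stress-high over control, and all 7 progenitor genes sit below 0 in the DG comparisons with control. No point had an adjusted p below 0.05.

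Ugt8, the enzyme that makes galactocerebroside for myelin, was the DG member with the smallest p. Its 5 controls had 14.1, 14.8, 16.1, 12.8 and 14.9 TPM. The stress-low rats had 16.9, 20.8 and 19.1 TPM, all above the controls, and the stress-high rats 18.2, 15.6 and 15.9 TPM, of which 1 was above them. The log2 fold change was 0.40 (SE 0.09, unadjusted p = 0.000616) for stress-low over control and 0.21 (SE 0.09, unadjusted p = 0.0356) for stress-high over control. The adjusted p of Ugt8 was 0.718 and 1.0 with edgeR, and for stress-low over control it ran from 0.165 (DESeq2) to 0.982 over the alternatives.

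In stress-low over control in DG, 7 of 30 members had an unadjusted p below 0.05, all of them myelin genes with a higher level, beside 6.9% of all genes. Without the stress-low library of animal 22 this count was 1, and without that of animal 34 it was 2, beside 1091 and 765 of 14254 genes. Gjb1, the gap junction protein connexin 32, had 4.68, 4.24, 4.83, 3.07 and 4.08 TPM in controls and 7.04, 4.46 and 5.98 TPM in stress-low rats, a log2 fold change of 0.50 (SE 0.19, unadjusted p = 0.0187). Opalin had 21.8, 24.9, 26.4, 19.6 and 29.9 TPM in controls and 31.8, 26.4 and 32.8 TPM in stress-low rats, a log2 fold change of 0.32 (SE 0.13, unadjusted p = 0.0275). For each of them 1 stress-low library lay within the controls. The others were Aspa, which breaks down N-acetylaspartate, at 0.43 (SE 0.19), Cldn11 at 0.29 (SE 0.13), Ermn at 0.25 (SE 0.10) and Enpp2 at 0.24 (SE 0.10). Ugt8, Ermn and Aspa were the 3 of 30 members whose groups did not overlap in TPM, which held for 3.71% of all genes. The adjusted p of each of the 7 was 0.718 with edgeR.

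Mbp and Mog were not among the 7. Mbp in DG had 1171, 1088, 1154, 881 and 1016 TPM in controls, 1169, 1061 and 1172 TPM in stress-low and 1191, 1076 and 973 TPM in stress-high rats. Mog had 39.4, 37.9, 40.8, 30.0 and 40.7 TPM in controls, 41.7, 40.3 and 43.8 TPM in stress-low and 38.7, 40.2 and 32.8 TPM in stress-high rats. The groups overlapped for Mbp throughout, and for Mog in each comparison with control.

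On the progenitor side in DG, Pdgfra had 15.0, 15.8, 18.7, 14.9 and 16.3 TPM in controls, 12.9, 17.2 and 12.7 TPM in stress-low and 13.7, 13.9 and 15.0 TPM in stress-high rats. The log2 fold change was -0.16 for stress-low over control. Gpr17 had 22.8, 22.1, 25.7, 20.0 and 23.6 TPM in controls, 19.6, 23.3 and 20.6 TPM in stress-low and 15.6, 20.0 and 24.4 TPM in stress-high rats. Sox6 had 2.40, 2.10, 3.5, 3.22 and 2.99 TPM in controls and 1.45, 2.20 and 2.35 TPM in stress-high rats, a log2 fold change of -0.47 (SE 0.20, unadjusted p = 0.0319) on 38 to 84 reads per library. Bmp4 had 10.3, 8.0, 7.93, 7.42 and 7.94 TPM in controls and 5.98, 5.67 and 6.47 TPM in stress-high rats, a log2 fold change of -0.44 (SE 0.22, unadjusted p = 0.0629). The Bmp4 groups did not overlap, nor did those of Gjb1, so this held for 2 of 30 members and for 1.46% of all genes. In stress-high over control, 2 of 30 members (Sox6 and Ugt8) had an unadjusted p below 0.05, beside 2.19% of all genes. In stress-high over control the log2 fold change in DG was -0.06 (SE 0.12) for Olig2, which had 7.43, 8.38, 10.4, 7.38 and 8.43 TPM in controls, 7.22, 9.31 and 7.73 TPM in stress-low and 8.34, 7.61 and 7.94 TPM in stress-high rats, and 0.03 (SE 0.08) for Myrf, with 4 of 6 transcription factors above 0 in stress-high and 1 of 6 in stress-low over control.

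Between the behavioral outcomes in DG, 16 of 17 myelin genes had a log2 fold change below 0 for stress-high over stress-low. Their median was -0.08, against -0.00017 for all genes. Of 15 further genes of mature oligodendrocytes, 8 were below 0 (median -0.0024). No member had an unadjusted p below 0.05. Ugt8 (-0.19, SE 0.10), Enpp2 (-0.16, SE 0.11) and Mog (-0.16, SE 0.12) came nearest. Mog, Cnp and Enpp2 had groups that did not overlap, 3 of 30 members, as did 8.69% of all genes. Whether the regions differed in any of these comparisons was tested as an interaction over 15401 genes, and no member and no gene passed with edgeR in any of the 3, with 310, 491 and 280 genes and 1, 0 and 1 members (Sox6 in each case) at an unadjusted p below 0.05. limma on log2(TPM + 1) called 1 gene in each, none of them a member. The interaction fits held a mean for each region and group and no animal term, so they did not use the pairing within animals.

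Other genes of the lineage were looked at in the same fits. Of 15 further mature genes in DG, 6 were above 0 in stress-low over control (median -0.02) and 10 in stress-high over control (median 0.04). In BLA 13 of the 15 were above 0 in stress-low over control (median 0.13) and 11 in stress-high over control (median 0.04). None of the 5 genes of newly formed oligodendrocytes was above 0 in DG stress-high over control (median -0.10), and 2 were in DG stress-low over control (median -0.0004). In BLA, 4 of these 5 were above 0 in stress-low over control (median 0.05) and 2 in stress-high over control (median -0.0002). Enpp6, which marks newly formed oligodendrocytes, had the smallest p of the genes listed. Its BLA controls ran from 2.78 to 4.42 TPM with a median of 3.33 TPM, the stress-low rats had 4.39 to 11.3 TPM with a median of 5.78 TPM and the stress-high rats 4.63 to 4.75 TPM. The log2 fold change was 1.02 (SE 0.22, unadjusted p = 0.000417, adjusted p = 1.0, edgeR) for stress-low and 0.46 (SE 0.23, unadjusted p = 0.0657) for stress-high over control. In DG the stress-low value of Enpp6 was 0.26 (SE 0.28). All 9 genes of cholesterol and galactolipid synthesis were above 0 in BLA in each stressed group, with medians of 0.14 and 0.11, and Fdft1, which makes squalene, had an unadjusted p of 0.0107 and 0.0447. Of the 5 further progenitor genes, 3 were above 0 in BLA stress-low over control (median 0.18) and 2 in stress-high over control (median -0.02). In DG, 3 were below 0 in stress-low over control (median -0.06) and 4 in stress-high over control (median -0.05). For DG stress-high over stress-low, 3 of the 5 were below 0 (median -0.04). Among them, Pcdh15, a cadherin found in progenitors, was higher in BLA stress-low than in control rats at 0.32 (SE 0.11) with an unadjusted p of 0.00984. It was lower in DG stress-high than stress-low rats at -0.52 (SE 0.17), with an adjusted p of 1.0 in each with edgeR. In that DG comparison 2 of the 5 had an unadjusted p below 0.05 (edgeR), and the log2 fold changes ran from -0.52 to 0.40. In BLA stress-low over control 1 of the 5 did, and the log2 fold changes ran from -0.21 to 0.40.

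Markers of other cells also lay off 0 in some of these comparisons. In BLA stress-low over control, all 5 leptomeningeal fibroblast markers were below 0 (median -0.31), as were all 4 endothelial markers (-0.07) and all 3 amygdala markers (-0.16), and 3 of 4 pericyte markers (-0.10). In BLA stress-high over control the medians were -0.31 for fibroblast, -0.0067 for endothelial, -0.16 for amygdala, -0.10 for pericyte and -0.36 for granule cell markers. In DG stress-low over control, all 3 granule cell markers (-0.20), all 4 endothelial markers (-0.12) and all 4 pericyte markers (-0.19) were below 0, and the fibroblast median was -0.03. In DG stress-high over control all 6 astrocyte markers were below 0 (median -0.10), and the medians were -0.22 for fibroblast, -0.02 for granule cell, -0.08 for endothelial and -0.13 for pericyte markers. Several of these medians were as far from 0 as those of the lineage sets. The neuron medians lay between -0.0070 and 0.01 and the microglia medians between -0.10 and 0.03 in the 4 comparisons with control. The astrocyte medians were 0.01, -0.01 and -0.08 in the other comparisons with control. Slc1a2, the main glutamate transporter of astrocytes, which also express Ptprz1, was at -0.25 (SE 0.07) in BLA stress-low over control. It had an unadjusted p of 0.00187 and an adjusted p of 1.0 (edgeR). It was the lowest of the 6 astrocyte markers, of which 3 were above 0 in that comparison, up to 0.13. The part of these markers of other cells in the lineage values was not tested.

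Within a region, the members varied together from library to library. With each group centred on its mean, the median correlation of log2(TPM + 1) over the 136 pairs of myelin genes was 0.78 over 12 BLA libraries and 0.53 over 11 DG libraries, against 0.22 and 0.07 over all pairs of genes with a mean of at least 1 TPM. Pairs share their libraries and their depth, so these are descriptions. The median over the 21 pairs of progenitor genes was 0.63 in BLA and 0.47 in DG. The 119 pairs of a progenitor and a myelin gene had a median of 0.58 in BLA, with all 119 above 0, and of -0.05 in DG, with 53 above 0. Without the BLA library of animal 30, chosen after seeing the data, the BLA medians were 0.60 for myelin pairs and 0.38 for progenitor with myelin pairs. Of the myelin genes, Mbp followed the rest most closely in BLA (median 0.87), and Ppp1r14a (0.32) and Aspa (0.41) least. The lowest of the 12 BLA libraries was that of control animal 17 for 13 of 17 myelin genes, and the lowest of the 11 DG libraries was that of control animal 28 for 14 of 17.

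The balance of progenitor to myelin transcript was summarised for each library as the mean log2(TPM + 1) of the 7 progenitor genes less that of the 17 myelin genes. It was -2.03 ± 0.15 (SD, n = 6) in BLA controls, -2.22 ± 0.09 (SD, n = 3) in BLA stress-low and -2.16 ± 0.16 (SD, n = 3) in BLA stress-high libraries. In DG it was -1.63 ± 0.13 (SD, n = 5) in controls, -1.96 ± 0.26 (SD, n = 3) in stress-low and -1.90 ± 0.22 (SD, n = 3) in stress-high libraries. The DG controls ran from -1.74 to -1.42. The stress-low libraries of DG had -2.07, -1.66 and -2.14, and the stress-high libraries -2.13, -1.84 and -1.71. Thus 1 library of each stressed group lay within the controls used. The DG control left out, that of animal 35, had -2.17, below every stressed DG library, so the separation depends on leaving it out. Within animals the index was lower in BLA than in DG in all 9, by 0.0045 to 0.693 in size, the smallest of these in a stress-high rat (animal 7).

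**Figure D5:**
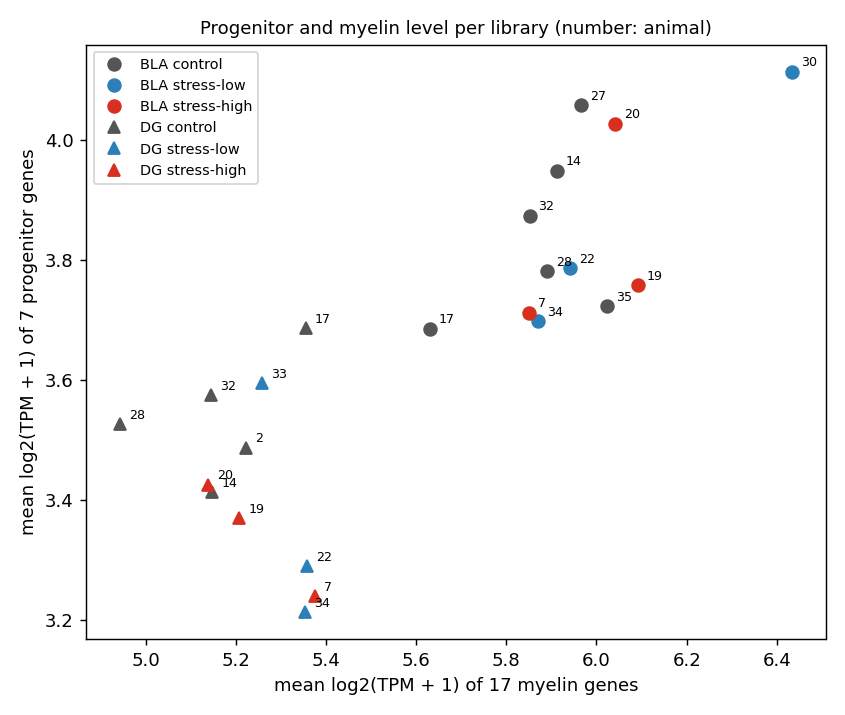
Mean log2(TPM + 1) of the 7 progenitor genes (vertical axis) against that of the 17 myelin genes (horizontal axis) in each of 23 libraries, labelled by animal, with circles for BLA and triangles for DG. The BLA libraries lie to the upper right with animal 30 at the end, and in DG the libraries of animals 22, 34 and 7 have low progenitor and high myelin levels.

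The level of a gene in BLA was also set against its level in DG across the 9 animals with both. No member passed at an adjusted p below 0.05 over 13194 genes with an exact permutation test of Pearson's r, nor did any gene, while 1184 genes and 3 members had an unadjusted p below 0.05. The median r of the 30 members was -0.03, with 13 above 0, whereas the median over all genes was 0.17, with 66.4% above 0. The 3 members were Neu4 (r = -0.88, exact permutation p = 0.00314, adjusted p = 0.277), Gpr17 (r = 0.79, exact permutation p = 0.00889, adjusted p = 0.377) and Gjb1 (r = 0.69, exact permutation p = 0.0359, adjusted p = 0.501). Their Spearman's rho was -0.87 (exact permutation p = 0.00451), 0.78 (exact permutation p = 0.0172) and 0.77 (exact permutation p = 0.0214). Without the 2 animals farthest from the BLA median, r was -0.82, 0.61 and 0.83. Mbp had an r of 0.00083, Mog of 0.16 and Pdgfra of -0.12. The sign of the members' median r changed with the animals used, from -0.18 without animal 28 to 0.12 without animal 17, and it was 0.02 with all animals that had both libraries and -0.18 with values centred on the mean of their group. No member passed in any of these.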

How the data were processed

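Bulk RNA of 25 punches (13 BLA, 12 DG) from 14 rats was sequenced after poly-A selection. Per the labels and the study's methods, alignment (STAR 2.6.0a, rat build Rn5) and gene quantification (RSEM 1.3.1) were done by the authors. The deposited table of each region holds expected counts, which are estimated counts that need not be whole, with the length and effective length of each gene. It also holds TPM computed by the authors, a unit that is scaled by length and has the same sum in every library. Effective lengths differed between the regions. EBSeq, which the authors used, was not run.

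After rounding, these estimates entered edgeR 4.0.16 (quasi-likelihood test, TMM, filterByExpr with a minimum count of 10, Benjamini-Hochberg over all genes, threshold 0.05), with 3 group means per region. BLA was compared with DG with the animal as a block and the log effective length as an offset. Labels give the animal, so the regions are paired; deviations from the group means correlated at 0.0813 to 0.223 within animals (9 pairs). DESeq2 1.42.0 and limma 3.58.1 on log2(TPM + 1), for genes with a mean of at least 0.5 TPM, were alternatives. Correlations used all pairings of 9 animals. Intervals are 95% intervals of the fit. The fits were tested on simulated counts with a common spread for all genes. For stress-low over control, a 1.25-fold change was recovered for 4% of changed genes in BLA and 38% in DG. At 1.5-fold these shares were 72% and 86%. For BLA over DG they were 68% at 1.25-fold and 93.9% at 1.5-fold. Smaller changes were not simulated. Each run also held genes changed 2-fold and 4-fold, most of which were recovered, and such calls loosen the adjusted threshold for the rest. The stress comparisons called no gene with edgeR, so the shares for stress-low over control may overstate recovery there. P-values of the comparisons within a region measure the spread between animals. Those of BLA over DG measure the spread of the region difference within animals, and those of the correlations come from permuted pairings.

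The library left out per region was that farthest on PC1 of log2(TPM + 1): BLA control animal 2 (46.4, others -17.3 to 12.5) and DG control animal 35 (56.0, others -13.7 to 2.28). Values in every library were planned for Pdgfra, Gpr17, Olig2, Myrf, Mbp, Mog and Opalin. The rule also named up to 3 members with the smallest unadjusted p per comparison and the 3 with the largest fold in each direction between regions. The members and lists were chosen with earlier results of these data known.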

Additional observations from a re-analysis of the deposited data

Results flagged for a closer look

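Of 62 groups of control libraries examined (30 members and the progenitor-minus-myelin index in each region), 5 had 1 library far from the others by Dixon's 95% critical value. Chance flags about 1 in 20 such groups. The 3 in BLA came from the control library of animal 17, which was the lowest for Opalin (35.37 TPM, the next being 54.04 TPM), Enpp2 (29.73 TPM, next 39.1 TPM) and Tspan2, a tetraspanin of the oligodendrocyte (38.99 TPM, next 52.42 TPM). In DG controls, Bmp4 was high in animal 2 (10.29 TPM, next 8.0 TPM) and Mog was low in animal 28 (30.01 TPM, next 37.88 TPM). No member differed between the regions in a stress comparison at an adjusted p below 0.05, in a fit that did not use the pairing within animals.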

How the results depend on the processing

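No member was called in the 6 stress comparisons or the correlation between regions under any alternative run, each left-out library or animal included (all counts 0), nor in the 3 differences between regions under the alternatives run there, which left out no library. With the title number as a replicate block the myelin medians were -0.07, 0.21 and 0.15 in BLA and -0.06, 0.15 and 0.11 in DG (stress-high over stress-low, stress-low over control, stress-high over control), and the progenitor medians 0.02, 0.02 and 0.02 in BLA and -0.06, -0.16 and -0.21 in DG. The block changed no call. These numbers mark no shared animal, the deviations of same-numbered libraries correlated at -0.0761 to 0.0626 in BLA and -0.212 to 0.0853 in DG, and 2 of 11 libraries per region correlated best with their own number.

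All stress-high animals carry numbers up to 20 and all stress-low animals numbers above 20. With that split as a covariate the DG myelin median was -0.35 for stress-high over stress-low, 0.33 for stress-low over control and -0.01 for stress-high over control, and the BLA medians were 0.04 (12 of 17 above 0), 0.15 and 0.20. Leaving out 1 library moved the myelin medians between -0.15 and 0.06, 0.02 and 0.26, and 0.05 and 0.16 in BLA, and between -0.15 and -0.04, 0.09 and 0.21, and -0.02 and 0.18 in DG. The progenitor medians moved between -0.03 and 0.14, -0.08 and 0.08, and -0.03 and 0.07 in BLA, and between -0.09 and 0.07, -0.31 and -0.0806, and -0.19 and -0.10 in DG. With all mapped libraries the DG progenitor medians against control were -0.08 and -0.08.

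Between regions, 25 to 27 members were higher in BLA under every alternative. Without the length offset none was higher in DG (0 with edgeR, 0 with DESeq2), and Ppp1r14a turned to 0.12 and 0.11. No replicate block gave 27 and 1. With limma on log2(TPM + 1) the median of all genes was -0.12, against 0.02, and the myelin median 0.62. Without Sox6, Ptprz1 and Enpp2 the index was -2.34, -2.45 and -2.49 in BLA controls, stress-low and stress-high and -1.82, -2.18 and -2.10 in DG, and with log2(TPM + 0.1) it was -2.31 in BLA stress-low. The causes were not tested. Nkx2-2, with 10 to 52 reads per library, is limited by depth.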

Other observations

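The 2 libraries left out differed from their groups in lineage genes. The BLA library of control animal 2 had 2040 TPM of Mbp and 39.4 TPM of Myrf, above all 6 BLA controls used, and its 30 members made up 0.398% of TPM. The DG library of control animal 35 had 9.06 TPM of Pdgfra, 11.3 TPM of Gpr17 and 0.68 TPM of Sox6, below all 11 DG libraries used, with a progenitor-minus-myelin index of -2.17. The study excluded a hippocampal control that was re-extracted after low RNA quality, and proposed damaged RNA or contamination. Whether it was this library was not established, and the part of RNA quality in these values was not tested.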
